A study of Mus musculus with 47 samples.

Results

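The genes described here are 10 secreted matrix genes of mouse C2C12 myoblasts: the matricellular genes Tgfbi, Postn, Thbs1, Thbs2, Tnc and Sparc, the fibronectin gene Fn1, and the small leucine-rich proteoglycan genes Aspn, Dcn and Bgn. They were taken by symbol, 10 of 45706 genes in the deposited tables, and the estimated counts of all transcripts of a gene were summed. Tgfbi and Aspn were chosen by their large measured changes with doxycycline (dox), so their values are given as a description with no test, and the other 8 genes were tested.

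C2C12 is an established mouse skeletal myoblast line that fuses into multinucleated myotubes when serum is withdrawn. Polyadenylated RNA was sequenced from 47 libraries in 16 groups, with 3 replicates a group and 2 in the dox-treated myoblast-enriched fraction. The line C2C12iMyoD1 carries endogenous MyoD1 and a dox-inducible Halo-MyoD1, and was collected in growth medium after 24 h of dox or vehicle (called 0 h here) and after 24, 48 and 120 h of serum starvation with dox or vehicle for the same time. At 120 h it was collected as whole culture and as the fractions passing a 40 µm filter (myoblast-enriched) and retained by it (myotube-enriched). The lines C2C12iCdh23 and C2C12iMcam carry an inducible adhesion gene, Cdh23 or Mcam, and were collected at 48 h with dox or vehicle. The transgenes sit in transposon vectors under a dox-responsive promoter. C2C12iMyoD1 is a mixed, not clonal, population in which dox switches the transgene on in part of the nuclei, and neither point is given for the other lines in the sources used here. No library is from cells that received dox without a transgene, so an effect of dox and an effect of the induced gene cannot be told apart.

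Matricellular proteins are secreted into the matrix without building its fibrils. They bind cell surface receptors, growth factors and collagens and tune adhesion, and they are best known from development and from the repair of injured tissue, muscle included. Small leucine-rich proteoglycans bind fibrillar collagens, control fibril diameter and hold growth factors of the TGF-β family in the matrix, and fibronectin forms the first scaffold onto which other matrix proteins assemble.

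Library totals ran from 15066362 to 50950707 estimated counts. The induced genes set the frame for each dox comparison. Mcam rose from 18.1 ± 1.49 to 71.3 ± 3.02 CPM (estimated counts scaled to library size; SD, n = 3 and 3). Cdh23 was 389 ± 54.2 without dox and 486 ± 73.6 with dox, a difference that did not pass the test (edgeR adjusted p = 0.102), and Myod1 in growth medium was 178 ± 5.77 without dox and 188 ± 9.59 with dox (adjusted p = 0.201). Myod1 fell with dox at 24 h, from 135 ± 4.31 to 117 ± 6.67 CPM (log2 fold change -0.23 ± 0.06, SE, adjusted p = 0.00414), at 48 h, from 388 ± 4.91 to 306 ± 14.9 (-0.36 ± 0.06, adjusted p = 0.000446), and at 120 h in whole culture, from 279.9 ± 42.3 to 92.0 ± 8.46 (-1.62 ± 0.13, adjusted p = 1.32e-05). It was not called in the myoblast-enriched (-0.17, adjusted p = 0.513) or myotube-enriched fraction (0.00431, adjusted p = 1.00). Myod1 and Cdh23 levels thus do not by themselves check the labels of the dox-treated libraries of their lines, which are called dox-treated here by label. Whether the transgene sequences were in the transcript reference is not stated, so whether these values include transgene reads is not known. Markers of other cell types were in part at or near 0 and in part expressed. Over all 47 libraries, Thy1, Adipoq, Fabp4, Plin1, Ibsp, Pecam1, Ptprc and Adgre1 did not exceed 0.291 CPM, and Cd3e was at 0. The fibroblast-list genes Dpt, Pi16 and Pdgfra reached 309, 41.8 and 41.4 CPM in their highest library, the osteoblast-list genes Runx2 and Dmp1 78.1 and 41.0, Cebpa of the adipocyte list 65.9, Scx of the tenocyte list 344 and Vwf of the endothelial list 12.1. Summed over its list, the endothelial markers reached at most 12.5 CPM and the immune markers 6.17 CPM, while the 5 adipocyte markers reached 78.4, the 6 osteoblast markers 96.0 and the 4 tenocyte markers 655 CPM.

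Per unit of transcript length, Sparc, Bgn and Fn1 were the abundant members. The medians of the 16 group means in TPM, a scale corrected for transcript length, were 2939 for Sparc, 2351 for Bgn, 979 for Fn1 and 244 for Thbs1. Dcn, Tnc, Postn, Thbs2 and Aspn lay between 14.4 and 32.3, and Tgfbi was at 0.771. Sparc kept the narrowest range, with a ratio of 5.58 between its highest and lowest group mean CPM. For Tgfbi, Aspn and Dcn no ratio is given, as each had a lowest group with at most 4 counts in any library. The lowest group was dox-treated C2C12iCdh23 for Tgfbi, Aspn, Postn, Sparc and Fn1, and a 0 h or 24 h group of C2C12iMyoD1 for the other 5 genes. The highest group was a 120 h group of C2C12iMyoD1 without dox for 8 of the 10 genes. The exceptions were Thbs1, highest in growth medium without dox, and Thbs2, highest in dox-treated C2C12iMcam.

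**Figure D1:**
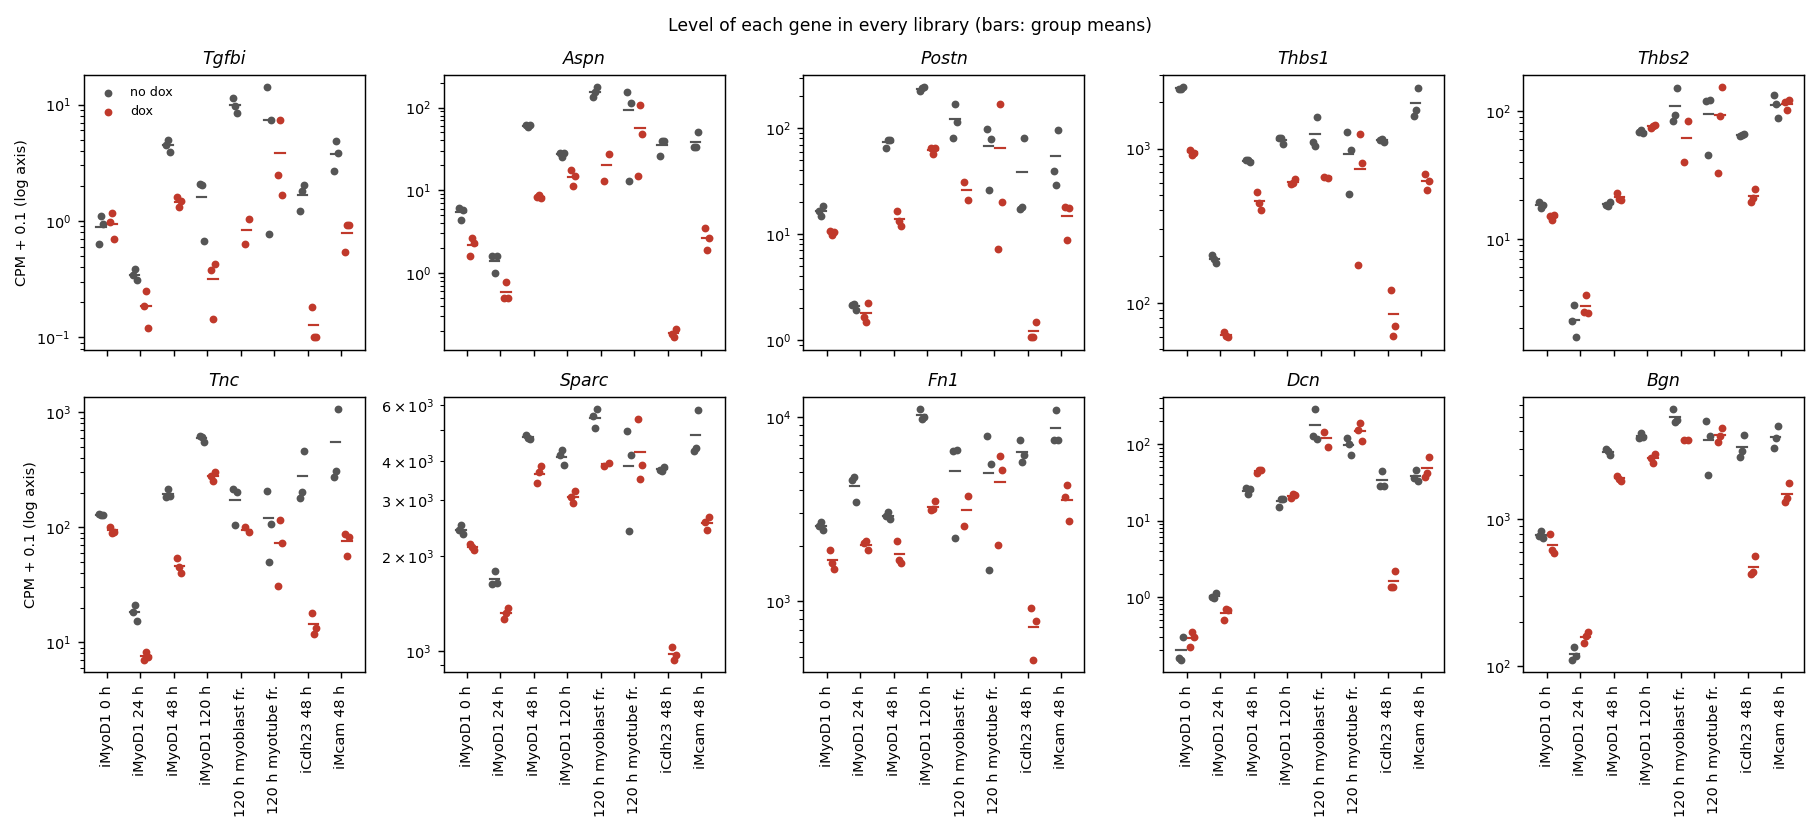
Level of each of the 10 genes in every library (CPM + 0.1, log axis) for the 8 culture conditions, without dox in grey and with dox in red; points are libraries and bars are group means. The red points lie below the grey points for most genes at 48 h, and in C2C12iCdh23 Thbs1 goes from 1099.7 to 1152 CPM without dox down to 60.5 to 121 with dox.

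Upstream sequence from RefSeq (GRCm38.p6) was found for 7 of the 10 genes, and 3 windows of 250 bases before the annotated start are shown to place the letters searched for in 1 fasciclin and 2 proteoglycan genes. Aspn lies on chromosome 13 (window chr13:49544193-49544442), Postn on chromosome 3 (chr3:54360857-54361106) and Bgn on chromosome X (chrX:73483351-73483600), all on the plus strand. Capitals mark the letters CANNTG (the E-box read by basic helix-loop-helix factors such as MyoD1) and TATAAA or its reverse complement.
Aspn: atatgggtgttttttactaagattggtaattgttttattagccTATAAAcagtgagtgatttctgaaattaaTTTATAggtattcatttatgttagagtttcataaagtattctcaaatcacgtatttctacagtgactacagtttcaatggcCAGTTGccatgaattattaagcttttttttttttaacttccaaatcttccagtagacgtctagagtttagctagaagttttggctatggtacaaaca
Postn: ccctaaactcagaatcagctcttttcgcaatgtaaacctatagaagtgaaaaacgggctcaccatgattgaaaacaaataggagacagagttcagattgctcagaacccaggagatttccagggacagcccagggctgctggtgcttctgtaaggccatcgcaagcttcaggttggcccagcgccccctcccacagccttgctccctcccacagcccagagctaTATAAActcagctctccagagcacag
Bgn: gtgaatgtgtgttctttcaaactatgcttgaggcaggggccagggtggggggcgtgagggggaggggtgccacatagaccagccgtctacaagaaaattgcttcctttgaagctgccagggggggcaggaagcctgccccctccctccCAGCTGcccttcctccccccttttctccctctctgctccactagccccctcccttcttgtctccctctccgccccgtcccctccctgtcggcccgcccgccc
The E-box form CAGCTG, searched on both strands, stood in the windows of Bgn, 102 bases before the start, and Sparc, 60 bases before the start, against 13% of 32851 promoters. The RefSeq start used for Sparc (window chr11:55420081-55420330, minus strand) lies inside the gene span given for Sparc below. The wider CANNTG, which includes CAGCTG, stood in 6 of their 9 windows, those of 5 of the 7 genes, against 66.2% of promoters. TATAAA stood in 5 of the 9 windows, those of Aspn, Thbs2 and Tnc and 1 of Postn, against 12.4%. The 2 Tnc windows overlap and hold the same TATAAA site. The letters TGANTCA and GGAATG were in none of the 9 windows, against 6.75% and 12.6% of promoters. These are matches of letters in short windows only. Thbs1, Fn1 and Dcn had no entry.

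The dox comparisons asked how these genes move with dox in the lines made to induce MyoD1, Cdh23 or Mcam. In whole cultures most of the tested genes fell with dox, few by more than 2-fold in C2C12iMyoD1, and all 8 by more than 2-fold in C2C12iCdh23. A gene was called at an adjusted p under 0.05 over all genes tested. In C2C12iMyoD1 in growth medium 6 of 7 tested genes fell, where 18.7% of all genes fell; Dcn was too low to test. At 24 h 5 of 8 fell and Bgn rose, where 31.7% of all genes fell and 31.1% rose. At 48 h 6 of 8 fell and Dcn rose (28.7% and 27.9% of all genes), and at 120 h 6 of 8 fell and none rose (23.7% and 21.4%). In C2C12iCdh23 8 of 8 fell (32.4%), and in C2C12iMcam 6 of 8 fell (24.8%). Calls over 2-fold downward were 1 gene at 0 h (1.36% of all genes), 3 at 24 h (5.13%), 2 at 48 h (8.46%), 3 at 120 h (8.8%), 8 in C2C12iCdh23 (17%) and 5 in C2C12iMcam (9.85%). The median log2 fold change of the tested genes was -0.44, -0.61, -0.66 and -0.72 at 0, 24, 48 and 120 h, -3.45 in C2C12iCdh23 and -1.25 in C2C12iMcam, while the median of all genes lay between -0.00246 and 0.02 in these comparisons. With all 16 groups in 1 fit, Thbs1 alone kept its call at 0 h (adjusted p from 0.393 to 0.698 for the other 5), and Bgn (0.174) and Dcn (0.123) at 24 h and Fn1 (0.149) at 48 h lost theirs.

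**Figure D2:**
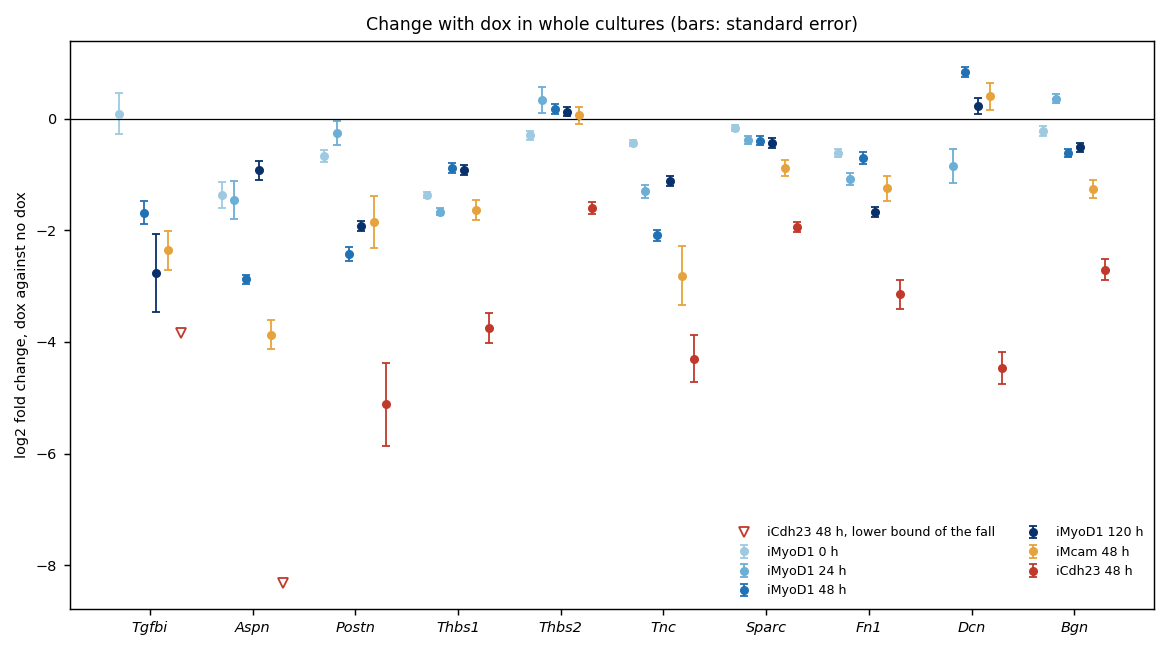
Log2 fold change with dox (bars, SE of the fit) of the 10 genes in the 6 whole-culture comparisons; filled points are fitted values and open triangles mark the smallest fall that the counts allow for Tgfbi and Aspn in C2C12iCdh23. Thbs2 and Dcn lie near or above 0 in C2C12iMyoD1 at 48 h and in C2C12iMcam, and all genes lie below -1 in C2C12iCdh23.

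Other marker lists moved in the same comparisons. The summed level of 12 myotube markers ran from 12867 to 14235 CPM at 48 h without dox and from 5155 to 5392 with dox. It ran from 4925 to 9758 and from 39.4 to 131 in C2C12iCdh23, and from 3631 to 9662 and from 488 to 1695 in C2C12iMcam, and at 120 h in whole culture from 18418 to 21259.6 and from 14399.6 to 16520.3. The 10 proliferation markers ran from 1462 to 1511 without and 505 to 524 with dox at 48 h, from 968 to 1252 and from 58.4 to 77.0 in C2C12iCdh23, and from 854 to 1064 and from 110 to 179 in C2C12iMcam. At 120 h the proliferation markers were the higher with dox, at 503 to 571 against 296 to 330. The 9 fibroblast markers, of which Thy1 was at or near 0 and 4 are collagen chains that many mesenchymal cells make, ran from 12467 to 13217 without and 6274 to 7273 with dox at 48 h, from 9847 to 11297 and from 1704 to 1919 in C2C12iCdh23, and from 11904 to 16162 and from 5353 to 6502 in C2C12iMcam. In C2C12iMyoD1 their sum was also lower with dox at 0 h (5034 to 5204 without, 3233 to 3335 with), at 24 h (2542 to 2591 and 1168 to 1191) and at 120 h (6711 to 10269 and 4438 to 4853). The 5 myoblast markers were lower with dox in C2C12iCdh23 (1707 to 1928 without, 371 to 440.2 with) and C2C12iMcam (1305 to 1987 and 501 to 769) and at 48 h (2373 to 2577 and 1844 to 1954), and higher with dox at 0 h (616 to 638 and 755 to 787) and 24 h (370.1 to 389 and 443 to 447). The 6 osteoblast markers were lower in all 6, as in C2C12iCdh23 (77.1 to 90.5 and 26.3 to 35.6) and at 48 h (89.4 to 91.9 and 43.4 to 48.9). The 4 tenocyte markers were lower with dox without overlap in 5 of the 6 whole-culture comparisons, all but that at 120 h, as in C2C12iCdh23 (274 to 317 and 168 to 254) and at 48 h (454 to 457 and 357 to 386). At 0 h the myotube sum was higher with dox (2.87 to 3.55 and 5.44 to 5.96) and the proliferation sum lower (3039 to 3061 and 2629 to 2737). The 5 adipocyte markers went in C2C12iCdh23 from 43.0 to 46.7 down to 12.8 to 18.2, but at 48 h in C2C12iMyoD1 the adipocyte sum was the higher with dox (35.8 to 38.7 and 43.0 to 46.1). The part of these shifts in the results was not tested, and in bulk RNA fewer cells of a type and less RNA per cell cannot be told apart.

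Tgfbi and Postn encode fasciclin-domain proteins that link collagens to integrins. Tgfbi (chr13:56609523-56639562, GRCm38, as all positions here) was low throughout. At 48 h in C2C12iMyoD1 it was at 4.40, 4.87 and 3.79 CPM without dox and 1.49, 1.23 and 1.38 with dox, a log2 fold change of -1.69 ± 0.20 (SE) given as a description. The groups did not overlap, and they did not at 120 h either (0.571 to 1.97 against 0.0440 to 0.323). In the myoblast-enriched fraction Tgfbi was at 11.4, 9.68 and 8.39 without dox and at 0.530 and 0.945 with dox. In C2C12iCdh23 it was at 1.11, 1.70 and 1.95 without dox and no dox library held more than 3 counts, so the fall was at least 14.4-fold against that floor of 0.110 CPM. In growth medium the 3 values without dox (0.538 to 1.00) and with dox (0.599 to 1.07) overlapped.

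Postn (periostin; chr3:54361109-54391037), which is made by mesenchymal cells during repair, fell in each C2C12iMyoD1 whole culture except that at 24 h. Postn at 48 h was at 65.2, 77.7 and 77.4 CPM without dox and 16.3, 13.2 and 11.8 with dox. The groups lay far apart, with a log2 fold change of -2.42 ± 0.12 (adjusted p = 9.69e-08). At 120 h it was at 223, 239 and 245 without and 64.8, 57.5 and 65.5 with dox (-1.92 ± 0.09, adjusted p = 8.21e-07). The fall in growth medium was smaller, -0.67 ± 0.10 (adjusted p = 0.000197), and at 24 h, where Postn was at about 2 CPM, the groups overlapped (-0.25, adjusted p = 0.334).

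In the adhesion lines the third replicate without dox stood apart for Postn. It also held the highest untreated myotube marker sum, 9758 CPM against 4925 and 6998 in C2C12iCdh23 and 9662 against 3631 and 5476 in C2C12iMcam. Its proliferation sum was the highest too, 1252 against 968 and 1065 and 1064 against 894 and 854. The part of this was not tested. In C2C12iCdh23 Postn was at 17.2, 18.0 and 80.1 CPM without dox and 0.959, 0.960 and 1.39 with dox. Every dox library was below every library without dox, and the log2 fold change was -5.12 ± 0.74 (adjusted p = 0.000655). Without replicate 3 of the untreated group it was -4.00. In C2C12iMcam Postn was at 38.9, 29.0 and 95.8 without and 17.7, 8.76 and 17.5 with dox, -1.85 ± 0.47 (adjusted p = 0.0135), or -1.18 without untreated replicate 3.

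Thbs1 and Thbs2 encode the trimeric thrombospondins, which bind CD47, CD36 and integrins. Thrombospondin 1 also activates latent TGF-β, and thrombospondin 2 is known for its effect on collagen fibrils. Thbs1 (chr2:118111876-118127133) fell in all 6 whole-culture comparisons, already in growth medium, where it was at 2444, 2427 and 2509 CPM without dox and 983, 914 and 937 with dox (-1.37 ± 0.05, adjusted p = 4.75e-10). It was the only tested gene of the set called past 2-fold at 0 h. At 24 h it was at 203, 193 and 181 without and 64.3, 61.0 and 59.6 with dox (-1.67 ± 0.06, adjusted p = 8.32e-10). The falls at 48 h and 120 h were -0.89 ± 0.09 and -0.92 ± 0.08 (adjusted p = 1.45e-05 and 3.06e-05). In C2C12iCdh23 Thbs1 went from 1143, 1152 and 1099.7 to 121, 60.5 and 70.2 (-3.75 ± 0.28, adjusted p = 2.64e-05), and in C2C12iMcam from 1634, 1779 and 2476 to 681, 539.5 and 616 (-1.64 ± 0.18, adjusted p = 0.000478).

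Thbs2 (chr17:14665500-14694235) differed by less in C2C12iMyoD1. At 48 h it was at 18.3, 18.0 and 19.4 CPM without dox and 22.9, 20.6 and 20.1 with dox, groups that did not overlap but did not pass the test (0.18 ± 0.09, adjusted p = 0.102). At 120 h the values were 68.3, 71.3 and 67.0 against 73.9, 75.7 and 77.8 (0.12 ± 0.08, adjusted p = 0.254). Its fall in growth medium, -0.30 ± 0.09 (adjusted p = 0.0139), was lost with DESeq2 (adjusted p = 0.0514) and without untreated replicate 1 (adjusted p = 0.0621) or dox replicate 2 (adjusted p = 0.0592). In C2C12iCdh23 Thbs2 fell from 64.1, 64.4 and 66.1 to 19.2, 20.8 and 24.5 (-1.60 ± 0.11, adjusted p = 1.88e-05). In C2C12iMcam it was at 134, 114 and 88.9 without and 118, 102 and 122 with dox, overlapping groups (0.06 ± 0.16, adjusted p = 0.77), and the sign turned to -0.09 without untreated replicate 3.

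Tnc (chr4:63959785-64047015) encodes tenascin C, a hexameric adhesion-modulating glycoprotein of tendon and of regenerating muscle. It fell in all 6 whole-culture comparisons. Cultures at 48 h held Tnc at 185, 215 and 188 CPM without dox and 53.6, 45.0 and 40.2 with dox. The groups were well apart (-2.09 ± 0.10, adjusted p = 9.46e-08). At 24 h it was at 18.4, 21.0 and 15.2 without and 6.97, 8.18 and 7.38 with dox (-1.30 ± 0.12, adjusted p = 2.16e-06), and at 120 h at 628, 609 and 556 without and 279.9, 253 and 300.1 with dox (-1.12 ± 0.09, adjusted p = 1.99e-05). The change in growth medium was -0.44 ± 0.06 (adjusted p = 6.65e-05).

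As for Postn, untreated replicate 3 of both adhesion lines held the most Tnc. In C2C12iCdh23 Tnc was at 179, 201 and 459 CPM without dox and 17.9, 11.6 and 13.1 with dox (-4.30 ± 0.42, adjusted p = 9.24e-05). In C2C12iMcam it was at 273, 307 and 1059.9 without and 87.9, 56.0 and 82.2 with dox (-2.81 ± 0.53, adjusted p = 0.0041), and at -1.92 without untreated replicate 3. The groups did not overlap in either line.

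Sparc (osteonectin; chr11:55394500-55423183), a calcium- and collagen-binding glycoprotein, changed least of the genes that fell in C2C12iMyoD1. Sparc at 48 h was at 4830.2, 4738 and 4683 CPM without dox and 3401, 3675 and 3855 with dox, and at 120 h at 4162, 4319 and 3874 against 3067, 2952 and 3202. Neither pair of groups overlapped. The log2 fold changes were -0.40 ± 0.08 and -0.44 ± 0.08 (adjusted p = 0.00164 and 0.00251), and -0.38 ± 0.06 at 24 h (adjusted p = 0.000222). At 0 h the fall of -0.17 ± 0.05 (adjusted p = 0.0146) was lost without untreated replicate 1, untreated replicate 2 or dox replicate 2, with adjusted p of 0.0573, 0.0819 and 0.0512. In C2C12iCdh23 Sparc went from 3732, 3727 and 3812 to 1033, 939 and 971 (-1.94 ± 0.10, adjusted p = 6.47e-06), and in C2C12iMcam from 4309, 4399 and 5807 to 2563, 2424 and 2652 (-0.89 ± 0.14, adjusted p = 0.00198).

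Fn1 (chr1:71585520-71653200) encodes fibronectin, which binds integrins through its RGD loop and is assembled by cells into fibrils. It was lower with dox in all 6 whole-culture comparisons. In growth medium it was at 2569.8, 2686 and 2441 CPM without dox and 1897, 1601 and 1485 with dox (-0.62 ± 0.08, adjusted p = 2.87e-05), and at 24 h at 4523, 4711 and 3442 against 2062, 2119.6 and 1898 (-1.08 ± 0.10, adjusted p = 2.28e-06). The largest fall in C2C12iMyoD1 was at 120 h, from 10966, 9745 and 10028 to 3126, 3145 and 3472 (-1.67 ± 0.09, adjusted p = 1.82e-06). In C2C12iCdh23 Fn1 went from 7453, 5696 and 6179.9 to 919.6, 481 and 778 (-3.15 ± 0.26, adjusted p = 4.58e-05), and in C2C12iMcam from 7513, 10936 and 7524 to 3691, 4245 and 2714 (-1.25 ± 0.22, adjusted p = 0.00327). In no case did the groups overlap. At 48 h the fall was -0.71 ± 0.11 (adjusted p = 0.000257), and there the main retained-intron transcript took 24.3 to 29.2% of the Fn1 estimated counts without dox and 29.1 to 56.0% with dox. In the other whole-culture groups it took 0.290 to 5.35%, and in the fractions 1.00 to 89.0%. Its part in the Fn1 change was not tested.

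Fibronectin comes in splice forms, and 2 whole exons that its transcripts include or skip are shown because their use shifted between groups. Both are type III repeat exons on chromosome 1, minus strand, GRCm38. Exon 25 (chr1:71613763-71614035, 273 bases) is used by 1 long transcript, Fn1-201, and exon 33 (chr1:71603660-71603929, 270 bases) by 4 transcripts. The sequences, from the GENCODE vM21 transcripts and in transcript direction, carry no marked letters.
Fn1 exon 25: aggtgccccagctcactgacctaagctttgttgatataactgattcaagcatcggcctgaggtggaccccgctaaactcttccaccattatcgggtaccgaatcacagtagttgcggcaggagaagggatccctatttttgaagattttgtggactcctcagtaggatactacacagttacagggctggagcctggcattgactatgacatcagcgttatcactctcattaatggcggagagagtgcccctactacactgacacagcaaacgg
Fn1 exon 33: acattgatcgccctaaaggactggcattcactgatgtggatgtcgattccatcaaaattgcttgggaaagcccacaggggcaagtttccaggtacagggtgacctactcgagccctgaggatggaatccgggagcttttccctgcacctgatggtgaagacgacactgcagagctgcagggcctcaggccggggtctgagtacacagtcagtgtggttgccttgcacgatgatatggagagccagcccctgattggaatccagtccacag
Use of an exon is given as the percent of estimated counts on transcripts that hold it, among all transcripts that either hold or skip it; the main retained-intron transcript does neither for exon 25 and skips exon 33. Exon 25 use was higher with dox in C2C12iCdh23, at 46.4, 51.8 and 54.0% against 24.6, 28.0 and 31.6%, and in C2C12iMyoD1 at 120 h, at 41.1, 39.6 and 43.7% against 23.4, 25.9 and 27.3%. At 48 h it was 49.9, 42.7 and 44.8% with dox and 40.0, 37.9 and 36.2% without. In growth medium it was 23.6, 23.2 and 26.1% with dox and 22.6, 20.9 and 20.0% without. At 24 h the order was the other way, with 27.9, 26.5 and 26.2% with dox below 33.3, 33.9 and 33.6% without. In none of these 5 comparisons did the groups overlap, and in C2C12iMcam they did (28.1, 34.6 and 40.7% with, 21.7, 26.3 and 31.7% without dox), though each of its 3 same-numbered pairs was higher with dox. Of all Fn1 counts, the retained-intron transcript included, Fn1-201 took 33.6, 21.2 and 17.2% with dox and 27.5, 27.4 and 24.1% without at 48 h, so the groups overlapped there on that scale, while in C2C12iCdh23 it took 45.7 to 52.5% with and 23.7 to 31.2% without dox. An exact permutation test of 3 against 3 cannot go below 0.1, so these shares are given without a test.

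In the same shift, Fn1-214, a long transcript without exon 25, held 25.5 ± 2.85% of the Fn1 estimated counts in C2C12iCdh23 without dox and 2.83 ± 0.63% with dox, and 25.3 ± 2.76% and 9.04 ± 2.30% in C2C12iMcam. Exon 33 stood in 80.1 ± 1.56% at 24 h without dox, in 72.1 ± 2.12% at 24 h with dox, in 43.4 ± 5.03% in C2C12iMcam with dox, and on average in 51.6 to 57.1% in the whole cultures at 0 and 120 h, in C2C12iCdh23 and in untreated C2C12iMcam. At 48 h in C2C12iMyoD1 it stood in 69.0 ± 0.39% without dox and 50.3 ± 9.73% with dox, but when the retained-intron transcript, which skips it, and the other short transcripts were left out, the values were 96.0 ± 3.99% and 94.8 ± 7.87%. All these shares are salmon's division of reads among transcripts that share most of their length. Dividing counts by transcript length first moved 126 group shares of transcripts by more than the spread between replicates and 306 by less. Fn1-201 was then at 43.6% with and 24.4% without dox in C2C12iCdh23, and at 13.8% and 16.5% at 48 h in C2C12iMyoD1.

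**Figure D3:**
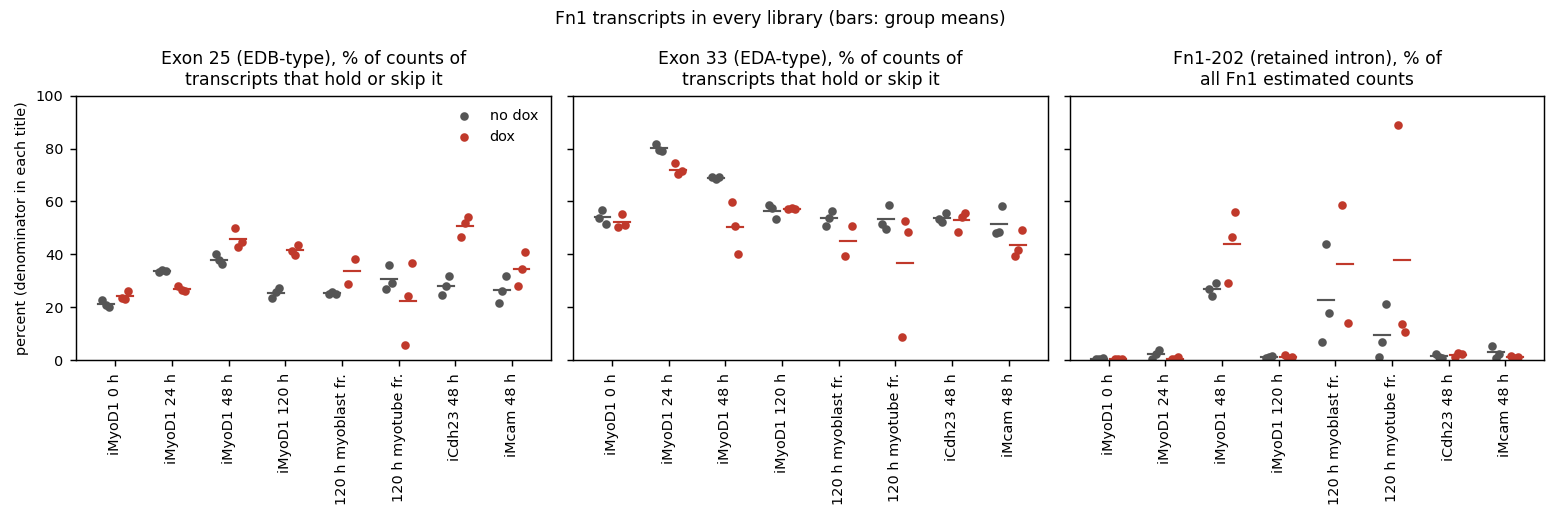
Use of exon 25 and exon 33 (percent of the estimated counts of transcripts that hold or skip the exon) and the main retained-intron transcript (percent of all Fn1 estimated counts), per library, without dox in grey and with dox in red; bars are group means. Exon 25 use is higher with dox in C2C12iCdh23 and at 120 h, and the retained-intron transcript exceeds 20% only at 48 h in C2C12iMyoD1 and in single libraries of the fractions.

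Aspn (asporin; chr13:49544443-49567565), a proteoglycan-family protein that binds collagen and TGF-β and carries an aspartate stretch in place of sugar chains, was lower with dox in every whole-culture comparison. At 48 h it was at 62.3, 57.9 and 61.1 CPM without dox and 8.30, 8.59 and 7.91 with dox, a log2 fold change of -2.88 ± 0.08 given as a description. In C2C12iMcam it was at 33.2, 33.1 and 49.9 without and 3.38, 1.78 and 2.53 with dox (-3.87 ± 0.26). In C2C12iCdh23 it was at 26.1, 39.7 and 39.8 without dox, while no dox library held more than 3 counts, so the fall was at least 319-fold. Aspn was lower in every dox library also at 0 h (-1.36), at 24 h (-1.46) and at 120 h (25.1 to 28.2 against 11.2 to 17.5, -0.92). The difference at 120 h was smaller than at 48 h, by 1.96 ± 0.18 on the log2 scale.

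Dcn (chr10:97479609-97518143) encodes decorin, the best-studied small proteoglycan, which binds collagen and TGF-β and holds back myostatin. At 48 h in C2C12iMyoD1 it was at 26.3, 21.9 and 25.7 CPM without dox and 41.3, 46.3 and 46.3 with dox, a rise of 0.84 ± 0.09 (adjusted p = 1.89e-05). At 120 h (14.8, 19.3 and 19.1 against 19.5, 22.0 and 21.4; 0.22 ± 0.14, adjusted p = 0.23) and in C2C12iMcam (36.5, 45.8 and 32.8 against 36.6, 42.2 and 68.9; 0.40 ± 0.24, adjusted p = 0.207) the differences did not pass the test. In C2C12iCdh23 Dcn fell from 28.4, 45.1 and 28.7 to 1.25, 1.22 and 2.10 (-4.47 ± 0.29, adjusted p = 1.61e-05). At 24 h it stood at or below 1.00 CPM in every library, and its fall there (-0.84 ± 0.31, adjusted p = 0.0313) was lost when any 1 of the 6 libraries was left out, with adjusted p from 0.0536 to 0.129, with DESeq2 (0.122) and without a filter on low counts (0.0690). At 0 h no library exceeded 0.242 CPM.

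Bgn (chrX:73483602-73495933) encodes biglycan, the close relative of decorin, a matrix proteoglycan that also signals to muscle membrane complexes. It rose slightly at 24 h, from 111, 135 and 118 CPM to 145, 161 and 169.8 (0.36 ± 0.08, adjusted p = 0.00208), and fell later. At 48 h it was at 3016, 2916 and 2752 without and 1985, 1892 and 1838 with dox (-0.62 ± 0.08, adjusted p = 4.91e-05), and at 120 h at 3605, 3873 and 3634 against 2618, 2442 and 2781 (-0.52 ± 0.09, adjusted p = 0.00111). In C2C12iCdh23 it fell from 2659, 2906 and 3751 to 426, 438 and 565 (-2.71 ± 0.18, adjusted p = 1.88e-05), and in C2C12iMcam from 3059, 3595 and 4334 to 1315, 1394 and 1763 (-1.26 ± 0.17, adjusted p = 0.00103). In growth medium the groups overlapped (-0.22 ± 0.09, adjusted p = 0.0624). Without dox replicate 1, the highest of its group at 794 CPM, that difference was -0.37 (adjusted p = 8.35e-06). It was called too without a filter on low counts (adjusted p = 0.000648) and with a replicate block (adjusted p = 0.0193).

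Whether the dox effect changed between 0 and 24 h, and between 48 and 120 h, was tested as the difference of the effects. From 0 to 24 h the effect became more negative for Tnc (by -0.92 ± 0.13, adjusted p = 3.88e-05), Fn1 (-0.51 ± 0.14, 0.00964), Thbs1 (-0.34 ± 0.08, 0.00241) and Sparc (-0.26 ± 0.08, 0.0178) and more positive for Bgn (0.54 ± 0.14, 0.00638). These were 5 of 8 genes, where 34.1% of all genes were called. The Sparc difference was lost without 0 h untreated replicate 3, 24 h untreated replicate 2 or 24 h dox replicate 1, with adjusted p of 0.0582, 0.0521 and 0.0547, and also with RLE factors (0.0598) or without a filter (0.0625). With all groups in 1 fit none of the 5 kept its call, with adjusted p from 0.263 to 0.847. Thbs2 was not called (0.58, adjusted p = 0.0648) but was so without 24 h untreated replicate 2 (0.00879) or 24 h dox replicate 3 (0.0465), and also with DESeq2 (0.0322), with RLE factors (0.0458) and without a filter (0.0199). Dcn (-1.67, adjusted p = 0.0955) was called without 0 h untreated replicate 3 (0.0374).

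From 48 to 120 h the effect became more negative for Fn1 (-0.96 ± 0.15, adjusted p = 0.000217), less positive for Dcn (-0.62 ± 0.17, adjusted p = 0.0112) and less negative for Tnc (0.98 ± 0.15, adjusted p = 0.000225). The main retained-intron transcript of Fn1 held on average 26.8% of its counts without and 43.9% with dox at 48 h. At 120 h it held 1.13% and 1.32%, and its part in the Fn1 difference was not tested. The difference for Postn (0.50 ± 0.16, adjusted p = 0.0262) was lost without any 1 of 8 of the 12 libraries, with adjusted p from 0.0505 to 0.0863, and with a replicate block (0.0503). These were 4 of 8 genes, where 34.1% of all genes were called. Thbs1, Thbs2, Sparc and Bgn had differences between -0.05 and 0.10 with adjusted p of 0.503 or more. With all groups in 1 fit none of the 4 called differences kept its call, with adjusted p from 0.201 to 0.755.

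Between the lines at 48 h, the dox effect of all 8 genes was more negative in C2C12iCdh23 than in C2C12iMyoD1, where 21.6% of all genes were called in that direction. The difference ran from -1.52 ± 0.12 for Sparc (adjusted p = 9.67e-07) to -5.30 ± 0.30 for Dcn (adjusted p = 1.11e-07), the gene that rose in one line and fell in the other. That of Postn was -2.67, and -1.56 without untreated replicate 3 of C2C12iCdh23. The libraries of these lines were deposited in separate tables, and line and table cannot be told apart in the levels. Against C2C12iMcam, which shares the table, the effect in C2C12iCdh23 was more negative for 7 of 8 genes (7.61% of all genes), again most for Dcn (-4.85 ± 0.41, adjusted p = 0.000125) and least for Sparc (-1.03 ± 0.17, adjusted p = 0.00342). Tnc was not called (-1.46 ± 0.71, adjusted p = 0.234), but was at -2.38 without untreated replicate 3 of C2C12iMcam (adjusted p = 0.0133).

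For Postn the call of the difference between the adhesion lines (-3.24 ± 0.95, adjusted p = 0.0494) rested on single libraries and on the size factors. It was kept without untreated replicate 3 of C2C12iMcam (-3.93) and lost without any 1 of 9 others, with adjusted p from 0.051 to 0.122. The value was -2.11 without untreated replicate 3 of C2C12iCdh23. With RLE factors the call was lost too (-3.23, adjusted p = 0.0503). Between C2C12iMcam and C2C12iMyoD1 the dox effect was called different for Thbs1 (-0.76 ± 0.20, adjusted p = 0.0466; 4.06% of all genes were called in that direction). That call was lost without any 1 of 9 of the 12 libraries, with adjusted p from 0.0538 to 0.112. It was also lost with RLE factors (0.0516), with a replicate block (0.0604) and with all groups in 1 fit (0.576). DESeq2 also called Sparc (-0.49, adjusted p = 0.0220) and Bgn (-0.64, adjusted p = 0.0110), among 954 genes called in that direction. Without a filter edgeR called Bgn (adjusted p = 0.0177), among 965. Leaving out 1 library made the call there for Postn (1.24, adjusted p = 0.0247, untreated replicate 3 of C2C12iMcam), for Sparc (0.0473) and Bgn (0.0221) without untreated replicate 1, and for Dcn (0.0317) and Bgn (0.0149) without dox replicate 3 of that line.

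Without dox, the comparison of time points followed these genes through differentiation. Most fell at 24 h of serum starvation and rose again by 48 h, and by 120 h Postn, Tnc, Thbs2 and Fn1 had reached higher levels still. Marker sums moved over the same times without dox, with medians at 0, 24, 48 and 120 h of 5159, 2584, 13072 and 8450.2 CPM for the fibroblast, 2.94, 8.57, 13713 and 19165 for the myotube and 3052, 949.8, 1505 and 307 for the proliferation list; their part was not tested. From 0 to 24 h 6 of 8 tested genes fell, 5 of them over 2-fold, where 37% of all genes fell and 16.6% did so over 2-fold. Thbs1 dropped from 2427 to 2509 down to 181 to 203 CPM (-3.64 ± 0.07, adjusted p = 5.02e-14), Postn by 3.01, Thbs2 by 3.00, Tnc by 2.78 and Bgn by 2.66 on the log2 scale. Sparc fell by 0.48 ± 0.06 (adjusted p = 8.86e-06). Fn1 rose, from 2441 to 2686 up to 3442 to 4711 CPM (0.75 ± 0.10, adjusted p = 8.09e-06), and Dcn was called as rising from 4 counts or fewer in each 0 h library (3.09, and 3.98 without untreated replicate 3). In all, 37.3% of all genes rose. With all groups in 1 fit the calls of Fn1 were lost from 0 to 24 h (adjusted p = 0.0923) and from 24 to 48 h (0.174).

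By 48 h 7 of the 8 genes were called higher than at 24 h, where 38.4% of all genes were, and Fn1 lower (-0.53 ± 0.10, adjusted p = 0.000315; also 38.4%). The retained-intron transcript held on average 2.21% of Fn1 counts at 24 h and 26.8% at 48 h, and its part was not tested. Postn went from 1.84 to 2.09 CPM at 24 h up to 65.2 to 77.7 at 48 h (5.21 ± 0.11, adjusted p = 7.44e-14), Dcn from 0.851 to 1.00 up to 21.9 to 26.3 (4.74 ± 0.14, adjusted p = 3.21e-12) and Bgn from 111 to 135 up to 2752 to 3016 (4.58 ± 0.09, adjusted p = 4.8e-14). Aspn moved from 1.29 ± 0.35 up to 57.9 to 62.3. The 24 h and 48 h libraries lie in separate deposited tables, and the labels give the batch RNAseq_v2 to the later libraries alone, so time and batch cannot be told apart between 24 and 48 h.

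From 48 to 120 h, within 1 table, 6 of 8 genes rose (33% of all genes) and Dcn fell (34.1%). Thbs2 rose from 18.0 to 19.4 CPM up to 67.0 to 71.3 (1.91 ± 0.09, adjusted p = 5.69e-07), Fn1 from 2798 to 3050.4 up to 9745 to 10966 (1.83 ± 0.10, adjusted p = 8.36e-07), Postn by 1.70 ± 0.10 (adjusted p = 1.38e-06) and Tnc by 1.63 ± 0.09 (adjusted p = 1.28e-06). The retained-intron share of Fn1 went from 26.8% to 1.13% on average, and its part was not tested. Thbs1 (0.47, adjusted p = 0.00081) and Bgn (0.37, adjusted p = 0.00465) rose less. The fall of Dcn (-0.45 ± 0.14, adjusted p = 0.0175) was lost without untreated 48 h replicate 1 (adjusted p = 0.0664) or replicate 3 (adjusted p = 0.0667). With all groups in 1 fit it was lost too (0.119), as were the calls of Thbs1 (0.267) and Bgn (0.112). Sparc did not pass the test (-0.19, adjusted p = 0.0885). Aspn was lower at 120 h, at 25.1 to 28.2 against 57.9 to 62.3 CPM, and Tgfbi at 0.571 to 1.97 against 3.79 to 4.87.

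**Figure D4:**
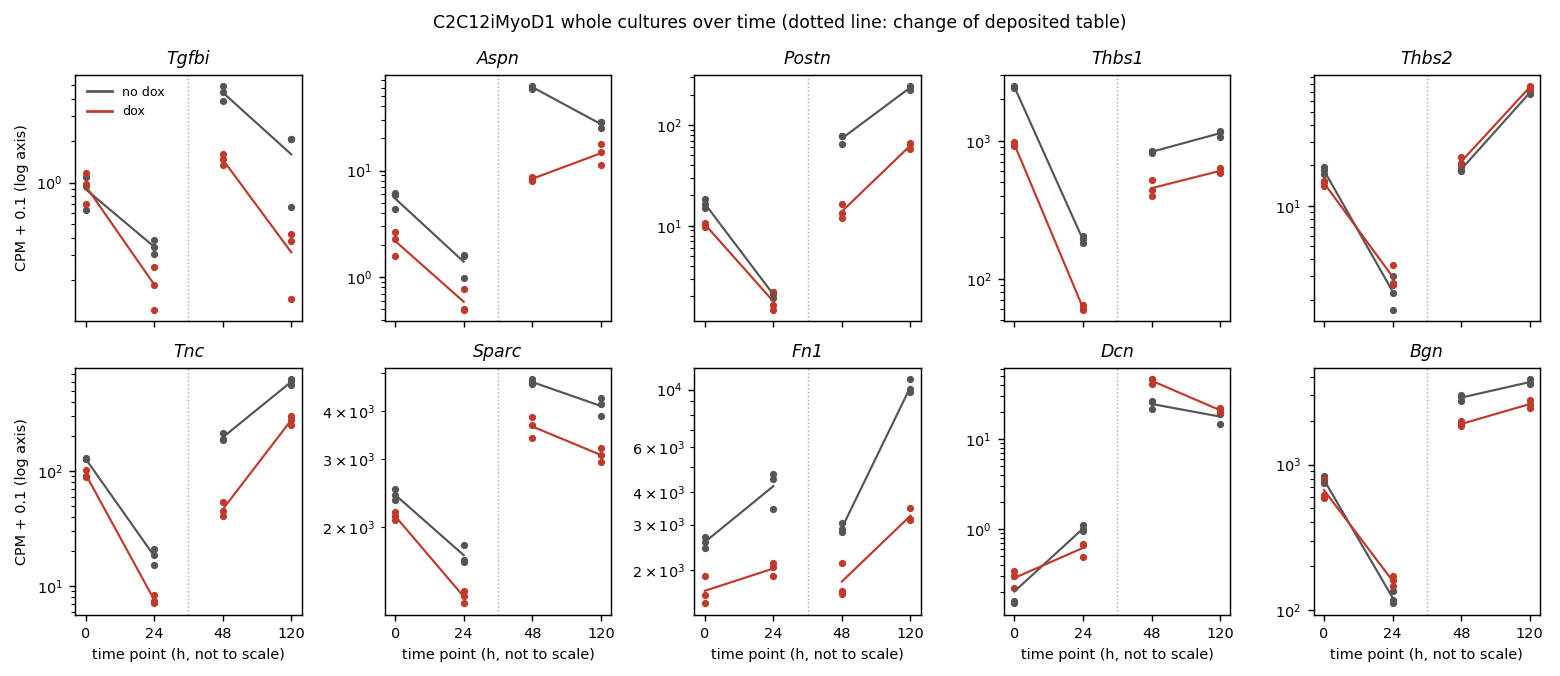
CPM + 0.1 (log axis; lines join group means) of the 10 genes in whole cultures of C2C12iMyoD1 at 0, 24, 48 and 120 h, without dox in grey and with dox in red, with each library as a point and time not to scale; the dotted line marks the change of deposited table between 24 and 48 h. Most genes dip at 24 h, and Fn1 without dox is higher at 24 h than at 0 h.

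The fractions at 120 h asked how these transcripts differ between the parts set apart by the filter. The 12 myotube markers summed to 16321 to 25855 CPM without and 5892 to 27850 with dox in the myotube-enriched fraction. In the myoblast-enriched fraction they summed to 5781 to 9429 and 5471 to 5617. Myotube-enriched dox replicate 3, at 5892, lay within the untreated myoblast-enriched range. Without dox the 5 myoblast markers were higher in the myotube-enriched fraction (2368 to 3026 against 1595 to 1961), and the 10 proliferation markers overlapped. In the myoblast-enriched fraction Postn fell with dox, from 81.2, 170.4 and 114 CPM to 31.1 and 20.9 (-2.22 ± 0.34, adjusted p = 0.0214). It was the only 1 of 8 called, where 2.52% of all genes fell, and the call was lost without untreated replicate 3 (adjusted p = 0.0945), dox replicate 2 (0.142) or dox replicate 3 (0.0964), and with all groups in 1 fit (0.0590). Aspn was at 135, 156 and 177 without and 13.0 and 27.2 with dox. Without dox replicate 3, the log2 fold change of Aspn moved from -2.94 to -3.57. Thbs1 was at 1099.7, 1042 and 1594 against 658 and 645 (-0.92, adjusted p = 0.0609). Without untreated replicate 2, whose Fn1 was at 2197 CPM against 6481 and 6562 in the other two, Thbs1, Tnc and Fn1 were called lower (adjusted p = 0.0245, 0.00604 and 0.0245). DESeq2 called 5 of the 8 genes here, among 644 genes that rose and 926 that fell. The 9 fibroblast markers summed to 18605 to 21093 CPM without and 7658 to 9664 with dox in this fraction; their part was not tested.

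In the myotube-enriched fraction none of the 8 genes, and 0 of 14112 genes, was called with dox by edgeR, with 79 genes at an unadjusted p under 0.05 and 2 genes called by DESeq2. Single libraries stood apart. Thbs1 was at 177 CPM in dox replicate 1 against 1236 and 809 in the others, and Aspn at 12.8 in untreated replicate 2 against 156 and 114. No member was called between the fractions, without dox (0.592% of all genes were) or with dox (0%), where Sparc was at 5079 to 5821 CPM in the myoblast-enriched and 2405 to 4979 in the myotube-enriched fraction without dox. Untreated Aspn, Dcn and Tgfbi averaged 156, 177 and 9.82 CPM in the myoblast-enriched fraction, above their whole-culture values at 120 h. Postn, Tnc and Fn1 were instead highest in the untreated whole culture. Fractions and whole culture lie in separate deposited tables, so fraction and table cannot be told apart in these levels. With replicate number as a block, 444 genes were higher and 232 lower in the myotube-enriched fraction without dox, against 81 and 2, and again none of the 8 members was called. With all groups in 1 fit Sparc (-0.50, adjusted p = 0.0267) and Dcn (-0.84, adjusted p = 0.0325) were called lower there, among 864 genes called higher and 773 lower. Untreated C2C12iCdh23 and C2C12iMcam were not called different in any of the 8 genes by this test (0.409% of all genes were). DESeq2 called Thbs1 (-0.80, adjusted p = 0.000900) and Thbs2 (-0.80, adjusted p = 0.00110) lower in C2C12iCdh23, among 130 genes called higher and 174 lower. Without a filter edgeR called Thbs2 lower (adjusted p = 0.0334), among 61 genes called higher and 76 lower.

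Of the wider families, 4 lists were followed: 30 other matricellular and fibulin-type matrix genes (matricellular for short), 15 other leucine-rich proteoglycans, 18 TGF-β pathway genes and 20 receptors, each without the 10 members. At 48 h in C2C12iMyoD1 11 of 21 tested matricellular genes fell and 5 rose, 4 of 11 proteoglycans fell and 3 rose, 12 of 18 TGF-β genes fell and 3 rose, and 7 of 16 receptors fell and 2 rose, where 28.7% of all genes fell and 27.9% rose. In C2C12iCdh23 the falls and rises were 15 and 1 of 22, 8 and 2 of 11, 10 and 2 of 18 and 13 and 0 of 17 (32.4% and 31.3% of all genes), with medians of -1.99, -1.65, -0.55 and -0.80 beside -0.00246 for all genes. In C2C12iMcam they were 12 and 2 of 21, 7 and 1 of 11, 8 and 0 of 18 and 7 and 1 of 17 (24.8% and 24.2%). In growth medium they were 5 and 2 of 19, 4 and 0 of 10, 8 and 0 of 18 and 7 and 3 of 15 (18.7% and 19.1%). At 24 h they were 6 and 6 of 16, 4 and 2 of 10, 9 and 4 of 18 and 6 and 5 of 14 (31.7% and 31.1%), and at 120 h 9 and 2 of 19, 3 and 3 of 11, 8 and 1 of 18 and 8 and 3 of 17 (23.7% and 21.4%). In the myoblast-enriched fraction they were 4 and 1 of 24, 3 and 0 of 11, 4 and 0 of 18 and 0 and 0 of 17 (2.52% and 1.82%), and in the myotube-enriched fraction no listed gene was called. Without dox, from 0 to 24 h, they were 17 and 2 of 19, 7 and 3 of 11, 14 and 1 of 18 and 14 and 1 of 15 (37% and 37.3%). From 24 to 48 h they were 1 and 19 of 20, 3 and 9 of 12, 1 and 15 of 18 and 2 and 15 of 17 (38.4% and 38.4%), and from 48 to 120 h 12 and 3 of 20, 5 and 1 of 11, 6 and 8 of 18 and 4 and 10 of 17 (34.1% and 33%).

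Among these genes Fmod (fibromodulin, a collagen-binding proteoglycan) fell from 65.4 ± 4.05 to 9.44 ± 0.24 CPM at 48 h (-2.81 ± 0.08, adjusted p = 9.17e-09), and Sparcl1, a relative of Sparc, from 26.1 ± 0.74 to 4.61 ± 0.63 (-2.51 ± 0.11, adjusted p = 5.63e-08). Fmod also fell in C2C12iCdh23, from 39.7 ± 47.1 to 0.261 ± 0.09 CPM (-7.25 ± 1.17, adjusted p = 0.00114), or by -5.60 without untreated replicate 3. In C2C12iMcam Fmod went from 80.8 ± 77.2 to 5.43 ± 4.20 CPM (-3.84 ± 0.81, adjusted p = 0.00634), or by -2.71 without untreated replicate 3 and -4.66 without dox replicate 3. Spp1 (osteopontin) fell in all 6 whole-culture comparisons, by -1.84, -2.15, -1.54 and -2.46 at 0, 24, 48 and 120 h, -4.61 in C2C12iCdh23 and -2.31 in C2C12iMcam (adjusted p of 0.000123 or less). Fbln7, a fibulin, went the other way: it rose in all 6 whole-culture comparisons, from 22.1 ± 2.41 to 146 ± 13.5 CPM at 48 h (2.71 ± 0.10, adjusted p = 2.17e-08), by 2.85 ± 0.18 at 120 h (adjusted p = 3.91e-06), by 1.35 ± 0.28 in C2C12iMcam (adjusted p = 0.0062) and by 1.05 ± 0.24 in C2C12iCdh23 (adjusted p = 0.00693). Ltbp2, which belongs to the latent TGF-β binding proteins, fell most in C2C12iMyoD1 at 120 h, from 183 ± 39.7 to 36.2 ± 3.78 (-2.35 ± 0.16, adjusted p = 6.14e-06), and Itgb6, the β chain of an integrin that activates latent TGF-β, fell in C2C12iCdh23 from 18.8 ± 2.23 to 0.143 ± 0.07 (-6.97 ± 0.26, adjusted p = 4.88e-06). The naming rule picked genes within each comparison, and these genes were called lower in others too, such as Sparcl1 (-6.22) and Ltbp2 (-1.85) in C2C12iCdh23 and Itgb6 (-1.66) and Ltbp2 (-1.72) at 48 h in C2C12iMyoD1, while Ltbp2 rose at 24 h (0.30, adjusted p = 0.0369).

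Over the 16 group means of log2(CPM + 1), the 45 pairs of members had Pearson correlations from 0.398 (Thbs1 with Dcn) to 0.929 (Aspn with Sparc), with a median of 0.714. Among 12085 genes the pattern nearest to Postn was that of Fmod (0.979), followed by Ccbe1 (0.979) and Adam19 (0.976), and that nearest to Bgn was Zfp36l1 (0.981), followed by Pdgfrl (0.979) and Cdh13 (0.976). Sparc was nearest to Fam20a (0.976), Aspn to Il12a (0.966), Tnc to Stard13 (0.961) and Adam12 (0.955), and Thbs1 to Emp1 (0.959), Lox (0.957) and Has2 (0.957). Dcn was nearest to Chrdl1 (0.953) and Ccn3 (0.948), Thbs2 to Nhs (0.943), Fn1 to Evi2a (0.938) and Tgfbi to P4ha1 (0.910). These groups share lines, tables and time points, so the values are descriptions of likeness over 16 points.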

How the data were processed

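Polyadenylated RNA of 47 libraries in 16 groups was analysed. The authors quantified reads with salmon against mouse transcripts (mm10 per the labels) and deposited estimated counts per transcript in 3 tables, not normalised; reads were processed with the nf-core RNA-seq pipeline, and salmon's version is not given in the sources used here. From these tables, transcripts were summed per gene, rounded to whole numbers and filtered with filterByExpr. Each comparison was fitted on its own groups with edgeR 4.0.16 (quasi-likelihood test, TMM, R 4.3.3) and Benjamini-Hochberg adjustment over all genes tested; a difference of dox effects was an interaction term. SE is the log2 fold change divided by the square root of F. CPM used TMM factors over all libraries, and TPM used GENCODE vM21 lengths. Where no library of a group held more than 3 counts, the fold was bounded at that floor, which covers counting error only.

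The members and lists were chosen with earlier results of these data known. Named list genes were those with the largest called falls and rises, as the named-gene rule set. The labels call replicates biological, and p-values measure the spread between these samples. Alternatives were DESeq2 1.42.0, DESeq2-type (RLE) size factors, no filter, all groups in 1 fit, a replicate block and each replicate left out. On simulated data with 200 genes changed 4-fold on the libraries of the 48 h dox comparison (13871 genes), edgeR recovered 197; it recovered 189 in the myoblast-enriched (14249 genes) and 91 in the myotube-enriched dox comparison (14112 genes). Same-numbered samples deviated together (3 pairs, every correlation over 0.1) in C2C12iMcam (0.227 to 0.419) and in the fractions without dox (0.117 to 0.413); in other comparisons the numbers were taken as names only, including those with 2 shared numbers, too few to decide (0.458 for the myoblast-enriched dox comparison, 0.102 for the fractions with dox). No 2 replicates were copies of each other.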

Additional observations from a re-analysis of the deposited data

Results flagged for a closer look

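The difference of 2 dox effects passed the interaction test for 25 combinations of gene and comparison. At 24 h against 0 h the log2 difference was -0.34 for Thbs1, -0.92 for Tnc, -0.26 for Sparc, -0.51 for Fn1 and 0.54 for Bgn. At 120 h against 48 h it was 0.50 for Postn, 0.98 for Tnc, -0.96 for Fn1 and -0.62 for Dcn. In C2C12iCdh23 against C2C12iMyoD1 it was -2.67 for Postn, -2.85 for Thbs1, -1.75 for Thbs2, -2.19 for Tnc, -1.52 for Sparc, -2.43 for Fn1, -5.30 for Dcn and -2.07 for Bgn. In C2C12iCdh23 against C2C12iMcam it was -3.24 for Postn, -2.09 for Thbs1, -1.64 for Thbs2, -1.03 for Sparc, -1.88 for Fn1, -4.85 for Dcn and -1.42 for Bgn, and in C2C12iMcam against C2C12iMyoD1 it was -0.76 for Thbs1. The comparisons between lines share libraries.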

How the results depend on the processing

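Counts below are of the 8 tested genes called. With DESeq2 the dox count in the myoblast-enriched fraction went from 1 to 5 (over all genes, from 260 up and 359 down to 644 and 926). That of untreated C2C12iCdh23 against C2C12iMcam went from 0 to 2 (25 and 31 to 130 and 174). That of the dox effect in C2C12iMcam against C2C12iMyoD1 went from 1 to 3 (341 and 588 to 562 and 954). Without a filter these became 4, 1 and 2 (over all genes 776 and 1205, 61 and 76, and 327 and 965), and the dox effect at 120 h against 48 h gained 1 gene over 2-fold. With RLE factors C2C12iMcam against C2C12iMyoD1 went to 0. With all groups in 1 fit the dox count at 0 h went from 6 to 1 (over all genes, from 2592 up and 2530 down to 514 and 314). The myoblast-enriched count went to 0, also over 2-fold (510 and 355). The count from 48 to 120 h went from 7 to 4 (4550 and 4702 to 3922 and 5271) and that of the fractions without dox from 0 to 2 (81 and 2 to 864 and 773). The dox-effect differences went from 5 to 0 at 24 h against 0 h (1926 and 2996 to 224 and 444). They went from 4 to 0 at 120 h against 48 h (2480 and 2539 to 1427 and 1661) and from 1 to 0 in C2C12iMcam against C2C12iMyoD1 (341 and 588 to 14 and 65). The replicate block gave 5 genes in the myoblast-enriched fraction (2 over 2-fold, and over all genes 2148 up and 2246 down, against 260 and 359). It gave 3 for untreated C2C12iCdh23 against C2C12iMcam (Thbs1, Thbs2 and Tnc, with 290 up and 317 down over all genes, against 25 and 31). For C2C12iMcam against C2C12iMyoD1 it gave 0 (285 and 557). The cause was not tested.

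Leaving out 1 replicate gave 0 to 4 genes in the myoblast-enriched fraction (also 0 to 4 over 2-fold), 0 to 1 for untreated C2C12iCdh23 against C2C12iMcam, 0 to 3 for C2C12iMcam against C2C12iMyoD1 (0 to 1 over 2-fold), and 0 to 1 over 2-fold for 120 h against 48 h and 24 h against 0 h. Among the tested genes signs reversed for 4 values: leaving out 1 replicate gave -0.092 to 0.19 for Thbs2 with dox in C2C12iMcam, -0.13 to 0.070 for Thbs1 in 120 h against 48 h, and, in C2C12iMcam against C2C12iMyoD1, -0.27 to 0.011 for Thbs2 and -1.06 to 0.18 for Tnc. None of these 4 was called. Low counts limit Tgfbi at 24 h and Dcn at 0 and 24 h.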
